A study of Mus musculus with 12 samples.

Results

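The Hox cluster miRNAs of the mouse comprise the miR-10, miR-196 and miR-615 families, whose hairpins lie among the Hox genes. All entries of the deposited table that name an arm of miR-10a, miR-10b, miR-196a, miR-196b or miR-615 were taken, which gave 11 of 1042 miRNAs. A hairpin is cut into a 5p and a 3p arm, and the members are both arms of miR-10a, miR-10b, miR-196b and miR-615, the shared 5p arm of the 2 copies of miR-196a, and the 3p arm of each copy. Hox genes encode homeobox transcription factors that specify position along the body axis, and fibroblasts keep a Hox expression pattern that reflects the site they came from. The miRNAs of these clusters tend to follow the expression of the neighbouring Hox genes, and some act on them in turn: miR-196 directs cleavage of the Hoxb8 transcript, and miR-10 represses Hoxd10. Undifferentiated embryonic stem cells hold most Hox genes in a repressed state.

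Small RNA was sequenced from 5 types of mouse cells in 12 libraries. The groups were 3 libraries of mouse embryonic fibroblasts (MEFs, C57B6/129SvJae F1), 3 of the embryonic stem cell line E14 (ESCs, 129/ola), and 2 each of induced pluripotent stem cells (iPSCs), NT-ESCs and NT-iPSCs, the last 3 types made from MEFs of the same background. The iPSCs carried a lentivirus with Oct4, Sox2, Klf4 and c-Myc under doxycycline control, NT-ESCs were derived by moving a MEF nucleus into an oocyte, and NT-iPSCs by moving the nucleus of an iPSC. Replicates carry the submitters' numbers. All 4 pluripotent types grew on irradiated MEFs with LIF, and each type was 1 line, so p-values measure the spread between RNA batches and not between lines, and ESCs differ from the rest in strain as well as origin.

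The mature sequences are shown because the members fall into pairs that are nearly alike, which bears on every value below. They are those of RefSeq (GRCm38.p6), where all 11 members were matched, written 5′ to 3′ with the seed (bases 2 to 8, the stretch that pairs with targets) in capitals. The prefix mmu marks mouse miRNAs and is left out below.
mmu-miR-10a-5p: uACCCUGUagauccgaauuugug
mmu-miR-10b-5p: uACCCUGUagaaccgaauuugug
mmu-miR-10a-3p: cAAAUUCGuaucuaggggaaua
mmu-miR-10b-3p: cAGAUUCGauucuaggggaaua
mmu-miR-196a-5p: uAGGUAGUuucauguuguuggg
mmu-miR-196b-5p: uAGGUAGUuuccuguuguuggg
mmu-miR-196a-1-3p: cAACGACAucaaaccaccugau
mmu-miR-196a-2-3p: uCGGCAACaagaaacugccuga
mmu-miR-196b-3p: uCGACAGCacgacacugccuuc
mmu-miR-615-3p: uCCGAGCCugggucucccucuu
mmu-miR-615-5p: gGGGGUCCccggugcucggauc
The pair miR-10a-5p and miR-10b-5p shares the seed ACCCUGU and differs at 1 base, U12A (position 12 from the 5′ end, miR-10a first). The pair miR-196a-5p and miR-196b-5p shares the seed AGGUAGU and differs by A12C. How reads with a mismatch were assigned is not given in the sources used here, so the split of reads within each pair is uncertain. Compared position by position without alignment, the 3p arms of miR-10a and miR-10b differ at 3 of 22 positions, and those of the 2 miR-196a copies at 17. The latter count overstates the difference, since these 2 arms are offset by 1 base. Only the 3p arms tell the copies of miR-196a apart.

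By the GENCODE M21 annotation (GRCm38), the 6 hairpins lie in all 4 Hox clusters. The deposited table holds no coordinates. On chromosome 11, in the Hoxb cluster, Mir10a lies on the plus strand (chr11:96317165-96317274), between Hoxb5 and Hoxb4 and 993 bases from Hoxb4. Mir196a-1 (chr11:96265164-96265265, plus strand) lies between Hoxb13 and Hoxb9, 6192 bases from Hoxb9. Neither overlaps a coding gene. In the Hoxd cluster, Mir10b (chr2:74726070-74726137, plus strand) is inside introns of 1 Hoxd3 and 2 Hoxd4 transcripts. In the Hoxc cluster, Mir196a-2 (chr15:102973350-102973434) and Mir615 (chr15:103014910-103015001), both on the plus strand, lie in introns of Hoxc5 transcripts, Mir196a-2 also between Hoxc10 and Hoxc9. In the Hoxa cluster, Mir196b (chr6:52230081-52230165, minus strand) is inside 3 transcripts of Hoxa9 and overlaps an exon in 2 of them. The map of the hairpins draws these positions to scale.

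**Figure D1:**
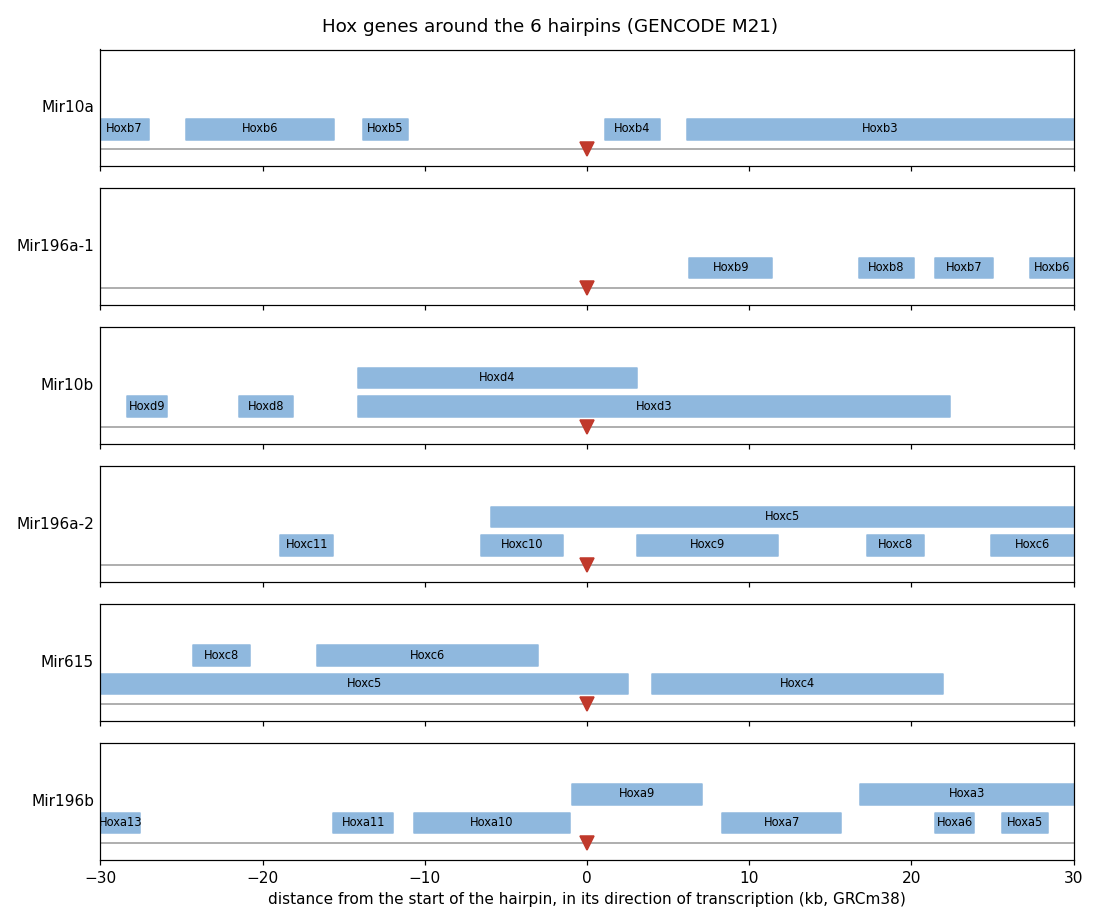
Hox genes (bars) around each of the 6 hairpins (triangle at 0), by distance in kb along the direction of transcription of the hairpin. Mir10b, Mir196a-2, Mir615 and Mir196b lie inside a bar, Mir10a and Mir196a-1 between bars; genes are drawn up to 30 kb away.

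For each miRNA and library the deposited value is a read number after DESeq normalization and the variance stabilizing transformation (VST), in log2 units. Inverting the transformation gave whole reads, between 7867514 and 8608689 for a MEF library, 4863365 and 5771398 for an ESC library, and 5293867 and 7567263 for a reprogrammed one. A count of 0 allows up to 3 reads. The 12 pluripotency markers (arms of the miR-290 to miR-295 and miR-302 clusters) summed to 8.6 to 140.6 normalized reads in MEFs, with miR-302a-3p, miR-302d-3p and miR-367-3p at 0, and to at least 542295 in every pluripotent library. Normalized reads are reads divided by the size factor of the library. All differences below are of mean VST between groups with the adjusted p of limma over the 732 miRNAs that reached 10 reads in 2 or more libraries, a filter that all 11 members passed, miR-196b-3p only through 1 NT-ESC and 1 NT-iPSC library. The arm miR-196a-2-3p needed its MEF libraries to pass, since outside MEFs only ESC replicate 3 reached 10 reads. For abundant miRNAs VST values are close to log2 reads. Folds are ratios of arithmetic means of normalized reads, whereas differences are between means of log values, so the 2 need not match, above all where the reprogrammed types are averaged. Because these are bulk samples, fewer cells that hold a miRNA and less of it per cell cannot be told apart. The 6 reprogrammed libraries hold no MEF or ESC sample, so a difference in library preparation cannot be told apart from the cell type either.

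The 5p arms of the miR-10 family were highest in MEFs, lower in ESCs and lowest in iPSCs, and from ESCs to reprogrammed cells miR-10b-5p fell more than miR-10a-5p. miR-10a-5p, the most abundant member in MEFs and the 13th miRNA there of 818 detected, had 97516, 102825 and 102446 normalized reads in the MEF libraries and 25776, 24146 and 26765 in ESCs. The iPSC libraries held 4584 and 4887, the NT-ESC libraries 13669.7 and 12973, and the NT-iPSC libraries 20109.8 and 15823. No type overlapped another. The order of the levels was MEF, ESC, NT-iPSC, NT-ESC and iPSC, and only the neighbours NT-iPSC and NT-ESC did not pass the test (difference 0.42, limma adjusted p = 0.0847). The step from ESCs to NT-iPSCs passed as deposited (-0.52, limma adjusted p = 0.004742) but not with upper quartile scaling (-0.27, limma adjusted p = 0.0881). MEFs exceeded ESCs 3.95-fold (difference 1.98, SE 0.12, limma adjusted p = 5.22e-08). ESCs exceeded the reprogrammed types, taken with equal weights, by 2.13-fold (difference -1.30 for reprogrammed minus ESC, SE 0.11, limma adjusted p = 3.467e-07).

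miR-10b-5p, with the same seed as miR-10a-5p, had 41998, 37483 and 46687 normalized reads in MEFs and 5447, 4927 and 3861 in ESCs. It fell to 146 and 127 in iPSCs, 440.3 and 350.3 in NT-ESCs, and 543 and 535 in NT-iPSCs. The MEF libraries held the most, every ESC library lay far above every reprogrammed library, and NT-iPSC and NT-ESC were again the neighbours without a difference past the threshold (0.45, limma adjusted p = 0.151). The difference between MEFs and ESCs was 3.16 (SE 0.16, limma adjusted p = 1.297e-08), or 8.86-fold. Reprogrammed cells lay below ESCs (difference -3.93, SE 0.14, limma adjusted p = 2.822e-10), or 13.3-fold lower, and 118-fold below MEFs.

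The 3p arms of the family were rare beside the 5p arms. miR-10a-3p had 176 to 199.7 normalized reads in MEFs and 28.2 to 37.1 in ESCs. In iPSCs it had 14.7 and 11.7, in NT-ESCs 38.8 and 60.4, and in NT-iPSCs 67.1 and 58.0. MEFs exceeded ESCs by 2.51 (limma adjusted p = 1.367e-06), but the ESC libraries lay inside the range of the reprogrammed libraries, with a difference of 0.06 (95% interval -0.37 to 0.50, limma adjusted p = 0.772). Type by type, iPSCs lay below ESCs (-1.28, limma adjusted p = 0.0008162). NT-ESCs did not pass (0.55, limma adjusted p = 0.0688), but did with upper quartile scaling (0.79, adjusted p = 0.0149), without the variance trend (adjusted p = 0.0467) and without NT-ESC replicate 71 (adjusted p = 0.0252). NT-iPSCs lay above ESCs (0.92, limma adjusted p = 0.007017, and 0.0521 without NT-iPSC replicate 51). miR-10b-3p had 71, 62 and 96 reads in MEFs, 10, 11 and 12 in ESCs, and, in the reprogrammed types, 5 and 0 (iPSC), 1 and 0 (NT-ESC), and 7 and 6 (NT-iPSC). It was 8.21-fold higher in MEFs than in ESCs (difference 2.94, limma adjusted p = 0.005085, and 2.07 with adjusted p = 0.0508 when scaled to total miRNA reads), and lower in reprogrammed cells as a whole than in ESCs (-2.87, limma adjusted p = 0.002157). NT-iPSCs did not pass against ESCs (-1.05, limma adjusted p = 0.290, but 0.0261 with only the groups compared). At these depths its level in the reprogrammed types was at or near the limit of detection. Its difference of iPSCs from ESCs (-3.34, limma adjusted p = 0.004627) fell to -1.52 (limma adjusted p = 0.0598) without iPSC replicate 63, the library with 0 reads.

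**Figure D2:**
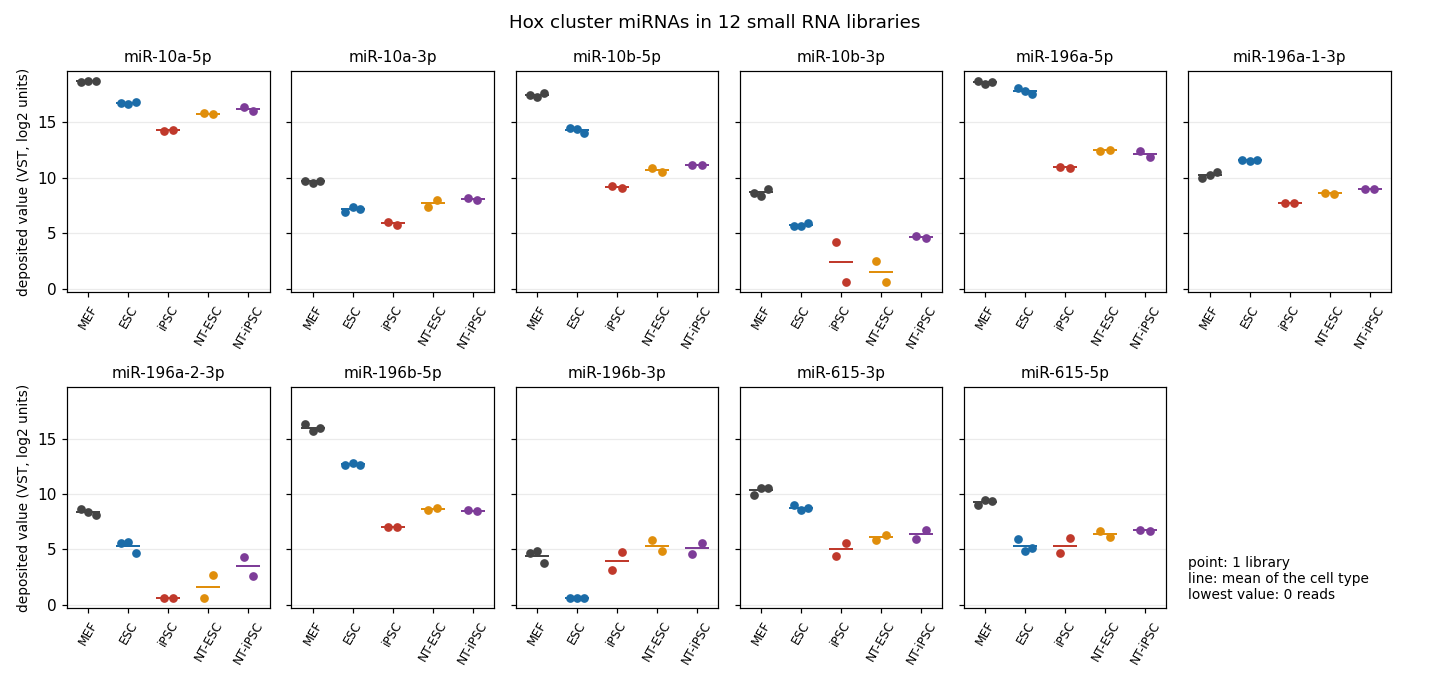
Deposited value (VST, log2 units) of each of the 11 Hox cluster miRNAs in the 12 libraries; points are libraries and lines the mean of a cell type. MEFs are highest in most panels, miR-196a-1-3p is highest in ESCs, and the 3 ESC libraries of miR-196b-3p lie at the value of 0 reads.

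The 5p arms of the miR-196 family were far lower in reprogrammed cells than in MEFs or ESCs, and miR-196a-5p stood in ESCs at 59.8% of its MEF mean. miR-196a-5p was abundant in both MEFs, with 101117, 81869 and 96375 normalized reads, and ESCs, with 67449, 55398 and 44232. It dropped to 458 and 449 in the iPSC libraries, 1271 and 1396 for NT-ESCs, and 1288 and 864 for NT-iPSCs. All MEF and ESC libraries stood above all reprogrammed libraries with a wide gap, while NT-ESCs and NT-iPSCs overlapped. Reprogrammed cells lay 58.4-fold below ESCs (difference -5.99, SE 0.16, limma adjusted p = 6.402e-11) and 97.6-fold below MEFs, and iPSCs alone 123-fold below ESCs. By contrast, MEFs and ESCs differed by 0.76 (SE 0.19, limma adjusted p = 0.00316), and the direction of this small difference depends on scaling: it was -0.13 (limma adjusted p = 0.514) with total miRNA reads as library size, 0.27 (adjusted p = 0.226) with TMM-type scaling and 0.43 (adjusted p = 0.0658) with clean reads, those the study counted after trimming.

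miR-196b-5p, which has the seed of miR-196a-5p, had a wide gap between MEFs and ESCs. There were 19526, 12346 and 14715 normalized reads in MEFs and 1496, 1639 and 1426 in ESCs, a 10.2-fold difference without overlap (3.33, SE 0.17, limma adjusted p = 1.391e-08). Reprogrammed libraries held 29.4 and 30.1 (iPSC), 87.4 and 97.2 (NT-ESC), and 88.4 and 80.4 (NT-iPSC). They lay 22.1-fold below ESCs (-4.61, SE 0.15, limma adjusted p = 1.303e-10) and 226-fold below MEFs. NT-ESCs and NT-iPSCs overlapped (-0.13 for NT-iPSC minus NT-ESC, limma adjusted p = 0.750).

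The 3p arms of the 2 copies of miR-196a moved in opposite directions between MEFs and ESCs. The Hoxb copy, miR-196a-1-3p, was the only member higher in ESCs, with 231, 282 and 332 normalized reads in MEFs and 735, 701 and 710.2 in ESCs. It had 47.8 and 48.4 in iPSCs, 92.9 and 88.4 in NT-ESCs, and 119.5 and 121 in NT-iPSCs. ESCs stood above every other library, and MEFs above every reprogrammed one. MEFs lay 2.54-fold below ESCs (-1.36, SE 0.16, limma adjusted p = 1.429e-05), and reprogrammed cells 8.29-fold below ESCs (-3.14, SE 0.14, limma adjusted p = 2.043e-09). The Hoxc copy, miR-196a-2-3p, had 72, 62 and 52 reads in MEFs and 9, 11 and 5 in ESCs, and MEFs exceeded ESCs by 3.10 (SE 0.61, limma adjusted p = 0.0006794). It passed the filter through its MEF libraries, the side that this test found higher. It was not detected in the iPSC libraries (0 and 0 reads), which puts it at least 4.02-fold below ESCs against the limit of 3 reads per library, and had 0 and 1 reads in NT-ESCs and 5 and 1 in NT-iPSCs. Reprogrammed cells as a whole lay below ESCs (-3.40, SE 0.53, limma adjusted p = 9.624e-05). Chosen after these values were seen, and given as a description with no test, the Hoxb copy made up 70.97% to 83.5% of the reads of both 3p arms in MEFs, 98.5% to 99.2% in ESCs and, for reprogrammed libraries, 96.7% to 100%.

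miR-196b-3p was the exception among the miR-196 arms, with very few reads in any library. MEFs held 4, 5 and 2 reads, ESCs 0 in all 3 libraries, iPSCs 2 and 8, NT-ESCs 18 and 7, and NT-iPSCs 6 and 13. Against the limit of 3 reads in an ESC library, the mean of MEFs was 1.37-fold higher and that of reprogrammed cells 2.05-fold. These folds allow for no counting error in the reads above 0. MEF replicate 15 and iPSC replicate 62, with 2 reads each, did not exceed the limit. The limma call of MEFs over ESCs (adjusted p = 7.103e-05) takes the ESC libraries at the fixed value of 0 reads, so it does not carry the uncertainty of these counts. The comparison of reprogrammed cells with ESCs is given without a test, as is that with MEFs, since only the libraries with 18 and 13 reads brought this miRNA past the filter, and both are of reprogrammed cells. Their limma calls enter only the counts of members below. MEFs and reprogrammed cells overlapped (0.38 for reprogrammed minus MEF, and 1.23 when scaled to total miRNA reads).

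miR-615 lies in an intron of Hoxc5, and both arms were of low abundance. miR-615-3p had 223, 341 and 349 normalized reads in MEFs, 117, 87.2 and 96.5 in ESCs, 4.41 and 10.3 in iPSCs, 13.2 and 17.5 in NT-ESCs, and 13.9 and 24.9 in NT-iPSCs. Both gaps, from MEFs to ESCs and from ESCs to reprogrammed cells, were free of overlap. MEFs exceeded ESCs by 1.58 (SE 0.34, limma adjusted p = 0.00136), a call that was lost when scaled to total miRNA reads (0.69, adjusted p = 0.0932), and reprogrammed cells lay 7.16-fold below ESCs (-2.93, SE 0.30, limma adjusted p = 2.401e-06). miR-615-5p had 121, 164 and 151 normalized reads in MEFs, but only 13.5, 6.01 and 7.59 in ESCs. In iPSCs it had 5.145 and 14.7, in NT-ESCs 22.2 and 15.8, and in NT-iPSCs 24.6 and 23.2. MEFs were 16.1-fold above ESCs (3.97, SE 0.40, limma adjusted p = 2.738e-06). Reprogrammed cells were 0.84 above ESCs (SE 0.34, limma adjusted p = 0.04047) with overlap of the iPSC and ESC libraries. That call was lost without ESC replicate 3 (0.61, adjusted p = 0.170), and also without ESC replicate 4, iPSC replicate 63, NT-ESC replicate 71, or NT-iPSC replicate 51 or 52. With all libraries it was lost with TMM-type scaling (adjusted p = 0.0596), by voom (0.0553) and with only the groups compared (0.07).

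Counted over the 11 members, MEFs against ESCs gave 10 higher and 1 lower in MEFs (limma adjusted p under 0.05), where 79% of all 732 miRNAs passed, 39.1% higher and 39.9% lower. A difference between these cell types is thus common to most miRNAs, and it is in their direction that the members lean to one side. The median difference of the members was 2.94, or 2.51 with miR-196b-3p set to its bound, and that of all miRNAs was 0.00. The 10 higher members include miR-196a-2-3p, which passed the filter through its MEF libraries. They also include miR-196b-3p, with 2 to 5 reads in MEFs against 0 in ESCs. The balance of calls over all miRNAs depends on scaling, with 49.5% of calls higher in MEFs as deposited, 60.4% with upper quartile scaling, 38.7% with TMM-type scaling and 29.6% with total miRNA reads. Under these the members gave 10, 9 and 7 higher, and 1 lower in each. None of the 11 members overlapped between MEFs and ESCs, where 79.9% of all miRNAs were without overlap. For miR-196b-3p this takes a count of 0 as 0, although it allows up to 3 reads and MEF replicate 15 had 2.

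Against ESCs, reprogrammed cells had 8 members lower, 2 higher (miR-196b-3p and miR-615-5p) and 1 that did not pass (miR-10a-3p). The count of higher members here and for each type includes miR-196b-3p. It reached the filter only through reprogrammed libraries and so had to differ from ESCs, all at 0. Its calls are counted here but not read as results. Over all miRNAs 82% passed, 38% lower and 44% higher, and 71% were without overlap, as were 9 members. The median difference was -2.93 for the members and 0.24 for all miRNAs. The 3 reprogrammed types share the ESC libraries as their reference. Their own counts were 9 lower and 1 higher in iPSCs, 8 lower and 2 higher in NT-ESCs, and 7 lower and 3 higher in NT-iPSCs, where 36.1%, 36.1% and 36.5% of all miRNAs were lower and 39.8%, 39.8% and 41.1% higher. In all, 75.8% of miRNAs passed for iPSCs, 75.8% for NT-ESCs and 77.6% for NT-iPSCs, against 10 of 11 members for each type. Libraries did not overlap with ESCs for 10, 11 and 11 members, and for 84.6%, 86.1% and 86.6% of all miRNAs. The median of the members was -3.75 in iPSCs (-3.34 with members at 0 set to their bound), -2.97 in NT-ESCs and -1.81 in NT-iPSCs. With upper quartile scaling NT-iPSCs had 5 members lower and 3 higher. In NT-iPSCs some calls rest on 1 library: that of miR-10a-5p (-0.52, limma adjusted p = 0.004742) was lost without NT-iPSC replicate 52 (-0.34, adjusted p = 0.0591). That of miR-615-5p (1.41, limma adjusted p = 0.01288) was lost without NT-iPSC replicate 51 (adjusted p = 0.0611). That of miR-196a-2-3p (-1.81, limma adjusted p = 0.03024) was lost without NT-iPSC replicate 52 (-0.95, adjusted p = 0.284) or without ESC replicate 2 or 3. In NT-ESCs that of miR-615-5p (1.07, limma adjusted p = 0.04538) was lost without ESC replicate 3 or 4 or either NT-ESC library. With all libraries it was lost with TMM-type scaling (limma adjusted p = 0.0507), with no filter (0.0576) and with only the groups compared (0.0606).

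Against MEFs, reprogrammed cells had 10 members lower and none higher, where 88.9% of all miRNAs passed, 40.4% lower and 48.5% higher. The remaining member, miR-196b-3p, fell in neither count. This is not read as a result, because its comparison with MEFs is given without a test. Libraries did not overlap for 10 members and for 80.6% of all miRNAs. The median difference was -4.51 for the members and 0.40 for all miRNAs. The share of calls over all miRNAs that were higher in reprogrammed cells was 54.5% as deposited and 65.6% with total miRNA reads, a scaling under which the same count of 10 members was lower and miR-196b-3p, which reached the filter only through reprogrammed libraries, was counted as higher.

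**Figure D3:**
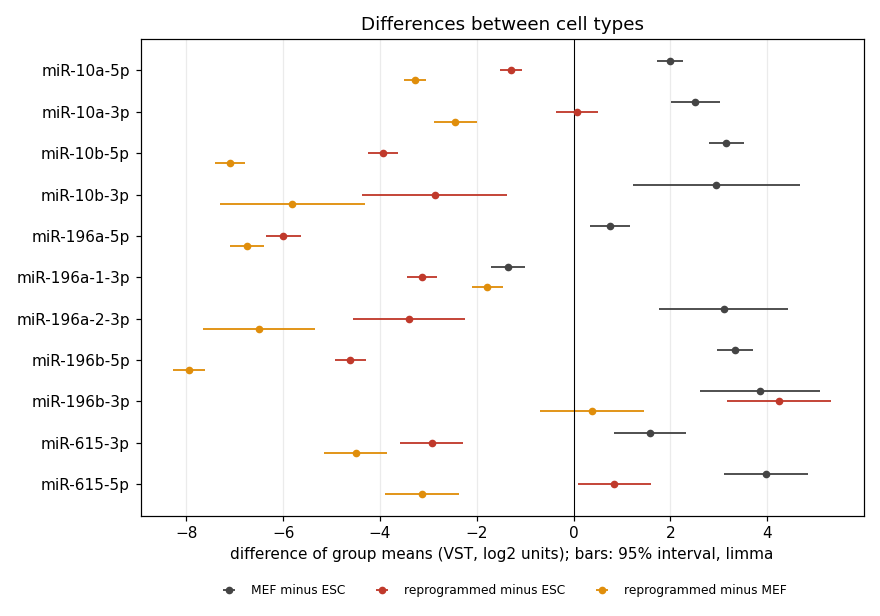
Difference of mean VST (log2 units) with its 95% limma interval for each member in 3 comparisons: MEF minus ESC, reprogrammed minus ESC and reprogrammed minus MEF. The 5p arms of miR-10b, miR-196a and miR-196b lie far left of 0 in both comparisons of reprogrammed cells; the small MEF minus ESC difference of miR-196a-5p (0.76) became -0.13 when scaled to total miRNA reads.

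Among the reprogrammed types, the members that differed between iPSCs and either type made by nuclear transfer were lower in iPSCs. Of the 11 members, 6 were higher in NT-ESCs than in iPSCs and none lower (limma adjusted p under 0.05), where 25.7% of all miRNAs passed, 12.6% higher and 13.1% lower. They were both arms of miR-10a, the 5p arms of miR-10b, miR-196a and miR-196b, and miR-196a-1-3p. In NT-iPSCs 8 members were higher than in iPSCs and none lower, where 26.5% of all miRNAs passed, 13.4% higher and 13.1% lower. The 8 were the same 6 with miR-196a-2-3p and miR-615-3p. These comparisons share the iPSC libraries. Libraries did not overlap for 9 members in NT-ESCs (68.9% of all miRNAs) and 10 in NT-iPSCs (63.1%). The median difference of the members was 1.35 for NT-ESCs and 1.48 for NT-iPSCs (1.38 with miR-196a-2-3p at its bound), against -0.10 and 0.00 over all miRNAs. Folds over iPSCs ranged from 1.89 (miR-196a-1-3p) to 3.75 (miR-10a-3p) in NT-ESCs for the 6. miR-10b-5p was 2.90-fold higher in NT-ESCs (difference 1.53, SE 0.20, limma adjusted p = 0.0004057) and 3.95-fold in NT-iPSCs (1.98, SE 0.20, limma adjusted p = 5.148e-05). The calls on miR-196a-2-3p in NT-iPSCs (limma adjusted p = 0.01445) and miR-615-3p (limma adjusted p = 0.03299) were lost under several alternatives. The first was lost without either iPSC library or NT-iPSC replicate 51 (adjusted p 0.0565 to 0.116), the second without iPSC replicate 62 or NT-iPSC replicate 52 (adjusted p = 0.211 and 0.213). The second was also lost with total miRNA reads (adjusted p = 0.129), clean reads (0.0529), voom (0.058) and only the groups compared (0.187), and the first with only the groups compared (0.0711). Also lost were miR-196a-1-3p in NT-ESCs with total miRNA reads (adjusted p = 0.0958) and with only the groups compared (0.0523), and miR-196a-5p in NT-iPSCs with only the groups compared (0.0552). miR-615-5p in NT-iPSCs, which did not pass (limma adjusted p = 0.0580), did with upper quartile scaling (0.0477), on log2 of normalized reads plus 1 (0.0435), by voom (0.0353) and without iPSC replicate 63 (0.0133), and miR-10b-3p did without iPSC replicate 62 (0.00341). Without iPSC replicate 63, the comparison of NT-ESCs gave 9 members, adding miR-615-3p and miR-615-5p as higher and miR-10b-3p as lower. With total miRNA reads the share of all calls that were higher fell from 48.9% to 25.1% for NT-ESCs and from 50.5% to 21.03% for NT-iPSCs, and with clean reads as library size to 34.8% and 31.1%. The members gave 5 and 7 higher with total miRNA reads, 6 and 7 with clean reads, and none lower.

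Between NT-iPSCs and NT-ESCs, 0 members passed by limma, where 12.8% of all miRNAs passed, 5.6% higher and 7.24% lower, and 5 members were without overlap (63.1% of all miRNAs). Unadjusted p was under 0.05 for 4 (miR-10a-5p, miR-10b-5p, miR-10b-3p and miR-196a-2-3p), and 1, miR-10b-3p, passed both by voom and on log2 of normalized reads plus 1. Over all miRNAs 43.6% of calls were higher in NT-iPSCs as deposited, 32.9% with TMM-type scaling and 20.8% with total miRNA reads, and the members gave 0 calls under each. The 95% intervals of the differences were -0.84 to 0.17 for miR-196a-5p and -0.59 to 0.33 for miR-196b-5p, and they ran above 0 for miR-10a-5p (0.09 to 0.75).

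The balance within the 2 nearly identical pairs was measured inside each library, where scaling has no part. Reads of miR-10b-5p amounted to 43.1%, 36.5% and 45.6% of those of miR-10a-5p in MEFs and to 21.1%, 20.4% and 14.4% in ESCs. In the 6 reprogrammed libraries they amounted to 3.17% and 2.60% (iPSC), 3.22% and 2.70% (NT-ESC), and 2.70% and 3.38% (NT-iPSC). The 3 reprogrammed types overlapped in this balance. The log2 ratio of miR-10a-5p to miR-10b-5p was 2.64 higher in reprogrammed cells than in ESCs (exact permutation p = 0.0119, two-sided and the lowest reachable with 84 arrangements, adjusted 0.0286 over 24 tests). In MEFs it was below the 9 other libraries (difference -2.93, exact permutation p = 0.00455, the lowest of 220 arrangements, adjusted 0.0286). It was also below ESCs (difference -1.17), where p = 0.1 by the exact test is the lowest that 3 libraries against 3 can give.

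For miR-196 the balance followed another order. Reads of miR-196b-5p amounted to 19.3%, 15.1% and 15.3% of those of miR-196a-5p in MEFs, 2.22%, 2.96% and 3.22% in ESCs, and 6.42% to 9.31% in the reprogrammed libraries. MEFs were highest and ESCs lowest, with no overlap. The log2 ratio of miR-196a-5p to miR-196b-5p was 1.38 lower in reprogrammed cells than in ESCs (difference -1.38, exact permutation p = 0.0119, adjusted 0.0286) and 1.65 lower in MEFs than in the 9 others (difference -1.65, exact permutation p = 0.00909, adjusted 0.0286). Against ESCs alone MEFs differed by -2.57 (p = 0.1 by the exact test). Since the members of a pair differ at 1 base, the part that read assignment plays in these percentages was not tested. The 3p arms of miR-10a and miR-10b, which differ at more positions, gave miR-10b-3p as 43.1% to 62.3% of miR-10a-3p in MEFs, 29.7% to 40.0% in ESCs and, for reprogrammed libraries, 0% to 25%, the last from 0 to 7 reads of miR-10b-3p, a description chosen after the values were seen.

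**Figure D4:**
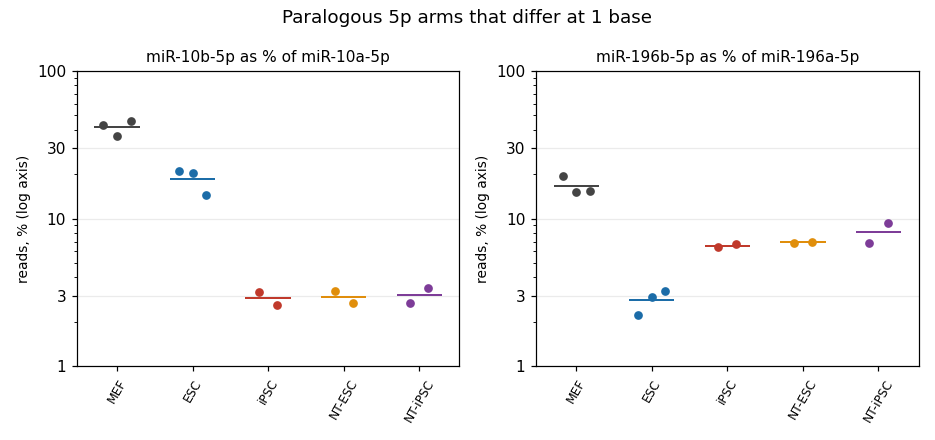
Reads of miR-10b-5p as a percentage of miR-10a-5p, and of miR-196b-5p as a percentage of miR-196a-5p, on log axes; points are libraries and lines the mean of a cell type. The first falls from MEFs to ESCs to reprogrammed cells (2.60% to 3.38%), and the second is lowest in ESCs.

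The 2 arms of a hairpin come from 1 precursor, and their ratio is also free of scaling. miR-10a-5p exceeded miR-10a-3p by a log2 ratio (0.5 read added to each arm) of 9.05 ± 0.13 in MEFs (SD, n = 3), 9.58 ± 0.24 in ESCs (SD, n = 3) and 8.23 ± 0.32 in reprogrammed cells (SD, n = 6). The fall from ESCs to reprogrammed cells was -1.35 (exact permutation p = 0.0119, adjusted 0.0286). For miR-196b it was 11.57 ± 0.68 in MEFs, 11.47 ± 0.18 in ESCs and 3.31 ± 0.77 in reprogrammed cells (SD, n = 3, 3 and 6), a difference of -8.16. This difference is given without a test, since the 3p arm passed the filter only through reprogrammed libraries. The ESC ratio rests on 0 reads of the 3p arm in all 3 libraries, so the size of this difference depends on the 0.5 read added, and it was -7.25 with 1 read added. In counts, the 3p arm had 5.0% to 19.5% as many reads as the 5p arm in the reprogrammed libraries, and at most 0.0495% in MEFs. For miR-615 the ratio was -1.05 ± 0.16 in MEFs, -3.46 ± 0.36 in ESCs and 0.33 ± 0.41 in reprogrammed cells (SD, n = 3, 3 and 6), so that the 3p arm led in MEFs and ESCs and the arms were near parity in reprogrammed cells. The difference between reprogrammed cells and ESCs was 3.80 (exact permutation p = 0.0119, adjusted 0.0286). The ESC libraries had 12, 6 and 7 reads of miR-615-5p, and only 1 ESC library reached 10 reads of both arms, too few for a test restricted to such libraries. For miR-10b it was -1.07 (exact permutation p = 0.345).

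These arm changes stand against a wide background. Over 263 hairpins with both arms measured, the median absolute change of the log2 ratio was 2.67 between reprogrammed cells and ESCs and 0.71 between MEFs and ESCs, and the quartiles lay at -2.96 and 1.93 in the first. The change of miR-10a is inside that range. That of miR-196b, whose size depends on the read added, lies below it. For comparison, 39 hairpins had a higher change than miR-615. The part that library preparation plays in these arm ratios was not tested.

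**Figure D5:**
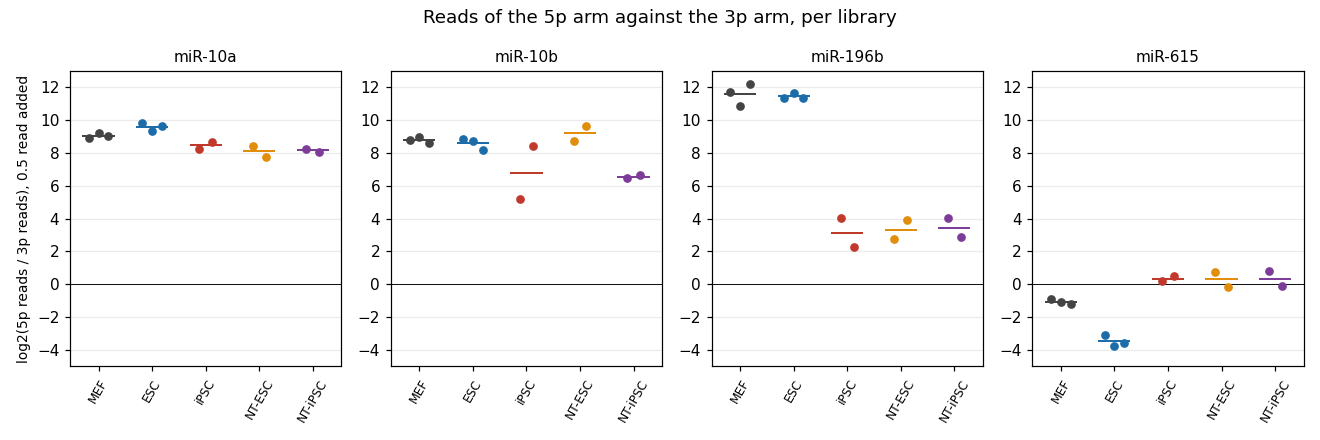
Log2 ratio of 5p to 3p reads (0.5 read added to each) for the 4 hairpins with both arms in the table under 1 name, per library; lines are the mean of a cell type. Reprogrammed libraries of miR-196b lie near 3.31 and MEF and ESC libraries near 11.5 (the ESC values are set by the read added, since the 3p arm had 0 reads), and the arms of miR-615 are near parity (0) in reprogrammed libraries only.

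As a share of all miRNA reads, the miR-10 5p arms held 1.39% ± 0.13 in MEFs, 0.545% ± 0.036 in ESCs (SD, n = 3 each), and 0.112% to 0.337% in the reprogrammed libraries. Reprogrammed cells were below ESCs (difference -0.319 percentage points, exact permutation p = 0.0119, adjusted 0.0286), and MEFs 1.05 points above the 9 others (exact permutation p = 0.00455, adjusted 0.0286). The miR-196 5p arms held 1.05% ± 0.06 in MEFs and 1.03% ± 0.21 in ESCs (SD, n = 3 each), which overlapped (difference 0.02 points, p = 1.0 by the exact test), and 0.0107% to 0.0273% in the reprogrammed libraries, which lay below ESCs (difference -1.01 points, exact permutation p = 0.0119, adjusted 0.0286). Between MEFs and the 9 others the difference was 0.692 points (exact permutation p = 0.0455, adjusted 0.0992). Leaving out any 1 MEF or reprogrammed library took that p to 0.0727 to 0.121.

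The miR-99 and miR-100 miRNAs are relatives of miR-10 by sequence: miR-100-5p holds the run GUAGAUCCGAA of miR-10a-5p, 11 bases from position 7, with another seed.
mmu-miR-100-5p: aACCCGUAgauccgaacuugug
All 3 (miR-99a-5p, miR-99b-5p, miR-100-5p) were higher in MEFs than in ESCs, with a median difference of 2.999, and all 3 were lower in reprogrammed cells than in MEFs. Against ESCs, 2 of 3 were lower in reprogrammed cells. miR-100-5p stood at 12.6% of its MEF mean in ESCs, 0.622% in iPSCs, 1.34% for NT-ESCs and 1.66% for NT-iPSCs. miR-99a-5p stood at 7.28%, 3.32%, 8.46% and 13.98% in the same order, and miR-99b-5p at 33.1%, 6.83%, 7.68% and 8.49%. The values of miR-10a-5p on this scale were 25.3%, 4.69%, 13.2% and 17.8%, and those of miR-10b-5p 11.3%, 0.324%, 0.940% and 1.28%.

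Among the let-7 miRNAs, which promote differentiation, let-7a-5p holds the seed of miR-196 shifted by a base: the run AGGUAGU stands at positions 2 to 8 of miR-196a-5p and from position 3 of let-7a-5p. Other let-7 sequences were not compared.
mmu-let-7a-5p: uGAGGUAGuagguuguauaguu
All 9 miRNAs of this group, 8 let-7 5p arms and miR-98-5p, were higher in MEFs than in ESCs (median 2.25), as most members were, and all 9 were also higher in reprogrammed cells as a whole than in ESCs (median 1.17), where the miR-196 5p arms were lower. By type, all 9 were higher than in ESCs for NT-ESCs and for NT-iPSCs, but for iPSCs only 2 were higher, 2 were lower and the median was 0.02. Their summed level was 20.7% of the MEF mean in ESCs, 20.98% in iPSCs, 69.0% for NT-ESCs and 97.8% for NT-iPSCs. All 9 were higher in each nuclear transfer type than in iPSCs.

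Because the pluripotent cells grew on MEF feeders, marker miRNAs of fibroblasts are given beside the members. All 10 fibroblast markers (arms of miR-199a, miR-199b, miR-214, miR-143 and miR-145, which are found in mesenchymal cells) were higher in MEFs than in ESCs, and none of the 10 was at 0 in any cell type. They summed to 666538 to 1125982 normalized reads in MEFs, 219531 to 251059 in ESCs, 90688 to 95266 in iPSCs, 317689 to 335519 in NT-ESCs and 371917 to 438232 in NT-iPSCs. Against iPSCs, 9 of 10 were higher in NT-ESCs and 10 of 10 in NT-iPSCs, the direction of the Hox cluster miRNAs. Against ESCs, 5 were higher and 5 lower in reprogrammed cells. miR-199a-3p and miR-199b-3p, which the table gives nearly the same reads, stood at 167% and 171% of MEFs in NT-ESCs. From ESCs to iPSCs the markers went both ways as a percentage of MEFs. Lower in mean level were miR-214-5p (9.65% in ESCs, 0.292% in iPSCs), miR-145-3p (8.59%, 0.419%), miR-143-3p (35.1%, 0.960%), miR-199a-5p (9.21%, 0.932%), miR-214-3p (20.04%, 2.64%) and miR-199b-5p (4.99%, 4.02%). Higher in mean level were miR-199a-3p (9.27%, 46.5%), miR-199b-3p (9.30%, 47.7%), miR-143-5p (4.24%, 26.3%) and miR-145-5p (9.74%, 12.02%). For comparison, miR-196b-5p stood at 9.79% in ESCs and 0.192% in iPSCs, and miR-196a-5p at 59.8% and 0.487%.

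Muscle and neural markers were also measured. All 4 muscle markers (miR-1a-3p, miR-206-3p, miR-133a-3p, miR-133b-3p) were higher in MEFs than in ESCs, and summed to 1024648 to 1367899 normalized reads in MEFs. In ESCs the sum was 0.239% of the MEF mean, with miR-133b-3p at 0, and in the reprogrammed types 0.773% to 0.942%. From ESCs to iPSCs, miR-206-3p went from 0.186% to 0.0528% of MEFs, and the other markers went up, miR-1a-3p from 0.540% to 4.84%, miR-133a-3p from 0.171% to 2.35% and miR-133b-3p from 0 to 1.40%. In ESCs every member other than miR-196b-3p stood at 6.23% of its MEF mean or more, above all 4 markers. In iPSCs miR-196a-2-3p was at 0, and miR-10b-5p (0.324%), miR-196a-5p (0.487%) and miR-196b-5p (0.192%) stood above miR-206-3p and below the other 3 markers. The 7 other members stood at 1.90% to 79.2% in iPSCs, the highest being miR-196b-3p. Of the 3 neural markers, 2 were higher in MEFs than in ESCs (miR-9-5p and miR-9-3p) and miR-124-3p was lower. In iPSCs, NT-ESCs and NT-iPSCs in turn, miR-9-5p stood at 3.10%, 7.86% and 5.40% of MEFs, miR-9-3p at 12.3%, 36.99% and 27.8%, and miR-124-3p at 4773%, 7897% and 6089%. How far feeder RNA contributes to the members' reads in the pluripotent libraries was not tested.

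The miRNAs whose profile over the 12 libraries was most like that of a member were found by the root mean square difference of centred VST values, a description without a test. For miR-10a-5p they were miR-221-5p (0.36), miR-214-3p (0.38) and miR-335-5p (0.40), where the median over all miRNAs outside the 11 members was 2.11. For miR-10b-5p they were miR-100-5p (0.38), miR-214-5p (0.42) and miR-29b-1-5p (0.42). The member closest to miR-10b-5p was miR-196b-5p (0.47), a miRNA from another Hox cluster and with another seed, and not miR-10a-5p. miR-196b-5p was itself closest to miR-214-5p (0.39), ahead of miR-137-3p (0.64) and miR-100-5p (0.71). miR-196a-5p was most like miR-24-2-5p (0.43), then miR-27a-5p (0.60) and miR-148a-5p (0.63), and miR-196b-5p at 0.93. The Hoxb copy miR-196a-1-3p was most like miR-146a-5p (0.38), miR-1198-5p (0.42) and miR-93-5p (0.46), and its nearest member was miR-10a-5p (1.21). miR-615-3p was most like miR-222-5p (0.46), miR-132-3p (0.50) and miR-9-5p (0.54). The others, miR-10a-3p (let-7b-5p, 0.38), miR-615-5p (miR-383-5p, 0.49), miR-196b-3p (miR-199b-3p, 0.64), miR-196a-2-3p (miR-145-3p, 0.76) and miR-10b-3p (miR-132-3p, 1.15), have fewer reads, each given here with its nearest profile.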

How the data were processed

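Small RNA of MEFs (3 libraries), ESCs (3), iPSCs (2), NT-ESCs (2) and NT-iPSCs (2) had been sequenced on the Solexa platform. The authors removed adaptors and low quality tags, annotated the reads, normalized miRNA reads with DESeq and deposited variance stabilized values on a log2 scale. Their processing notes name the build mm8, and the aligner and miRBase release are not given in the sources used here. All 12 library columns were used.

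The transformation was inverted to reads, which were whole within 0.05 read for 100% of 9458 nonzero values, and recomputed values differed from the deposited ones by at most 8.5e-07. The deposited values were tested with limma (3.58.1, R 4.3.3), using 5 group means, a trended empirical Bayes variance and Benjamini-Hochberg adjustment at 0.05 over the 732 miRNAs that reached 10 reads in 2 or more libraries. "Reprogrammed" is the mean of the iPSC, NT-ESC and NT-iPSC means. Ratios and shares within a library were compared by two-sided exact permutation tests over libraries, 8 measures in 3 comparisons, adjusted over the 24. Read intervals and limits cover counting error only.

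The members and lists were chosen with earlier results of these data known. Named were all arms of the 5 miRNAs, the 3 nearest profiles of each, and the lists; others are marked as chosen after their values were seen. Alternatives were other scalings, transformations, filters and fits, and each replicate left out. Summaries used Python 3.11.15, numpy 2.4.6, pandas 2.3.3 and matplotlib 3.10.9.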

Additional observations from a re-analysis of the deposited data

How the results depend on the processing

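For single members in a comparison, 1444 values kept direction and side of the threshold, 42 lost the call and 15 gained it. Another 13, of 6 differences not called with or without the alternative, changed sign or went to 0. A called value changed sign in 1 case: miR-196a-5p between MEFs and ESCs with total miRNA reads as library size (-0.13, limma adjusted p = 0.514, against 0.76). That scaling shifts the median of all miRNAs in this comparison by -0.88, upper quartile scaling by 0.63, TMM-type scaling by -0.48 and clean reads by -0.32. Counts of members called moved over 1.5 times in few cases. A filter of 100 reads in each library of a cell type kept 7 members, of which 7 were called for MEFs against ESCs, and 6 each when NT-ESCs or all reprogrammed cells were set against ESCs. Fitting only the groups compared gave 5 for NT-iPSCs against iPSCs. For NT-iPSCs against NT-ESCs, log2 of normalized reads plus 1 and voom each gave 1, both times miR-10b-3p.

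For the 5p to 3p ratio of miR-196b in MEFs against the 9 others (5.54, exact permutation p = 0.0864), adding 1 read gave 5.76 (exact permutation p = 0.00909), and leaving out a library gave 5.07 to 6.25, with an exact p of 0.0182 without MEF replicate 14 and 0.0242 to 0.0303 without any 1 ESC library. The 3p arm of miR-196b passed the filter only through reprogrammed libraries, which are among the 9 others. These p-values therefore lend no support to a difference. For the miR-615 ratio between reprogrammed cells and ESCs, a minimum of 10 reads of each arm left 1 ESC library against 5 reprogrammed ones and a difference of 3.42, for which no exact p under 0.167 can be reached, so it says nothing about stability. Leaving out a library gave differences of 0.649 to 0.804 percentage points for the share of the miR-196 5p arms in MEFs against the 9 others. Without iPSC replicate 63, NT-ESCs against iPSCs gave 9 members, the most of any library left out. The causes were not tested. With 2 libraries a type and at most 18 reads of miR-10b-3p, miR-196a-2-3p and miR-196b-3p in any reprogrammed library, the values of these arms are imprecise. No paired analysis was possible because no replicate number occurs in more than 1 cell type.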
